A study of Mus musculus with 15 samples.

Results

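Collagen-induced arthritis (CIA) was compared with the healthy state in forelimb joint tissue of mice, over the whole transcriptome, in 10 messenger RNA libraries of the 15 in the series. The CIA group held 5 libraries from wild-type male DBA/1 mice aged 8 weeks that had received bovine type II collagen in complete Freund's adjuvant and a booster in incomplete Freund's adjuvant, and that entered the group at an arthritis index over 5. The healthy group held 5 libraries from wild-type male DBA/1 mice of the same age that were neither immunized nor treated. The other 5 libraries came from arthritic mice given the code-named compound F20. They entered the filter on low counts, the scaling and the fit, where they shared its estimate of the spread. The tissue was the forelimb cut at the elbow, freed of skin and most muscle, so each library mixes joint capsule, synovium, tendon, cartilage, bone and remaining muscle. Whether each library came from its own mouse is not stated in the labels, and the p-values therefore cover variation among libraries that may in part be technical.

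In this model an immune response against a cartilage collagen brings myeloid cells into the joint, where the lining thickens and cartilage and bone are eroded. Myeloid cells are told apart by the transcription factors that set their identity and by the receptors they carry for microbial sugars, dying cells, lipids and nucleotides. Stromal cells of the joint are marked by limb transcription factors, growth factor receptors and the enzymes of the sugar chains of matrix.

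Of 26688 genes in the table, 15770 passed the filter on low counts, and a gene was called at an edgeR adjusted p under 0.05. In CIA, 4094 genes (26.0% of those tested) were higher and 3081 (19.5%) were lower than in healthy tissue, and these shares are the background for every count below. The gene lists below were chosen with earlier results of these data known. Their counts and medians describe the lists and are not independent support. A change of at least 2-fold was called upward in 1978 genes (12.5%) and downward in 656 (4.16%). Every CIA library lay above every healthy library in 1850 genes (11.7%) and below it in 1977 (12.5%). When the share of skeletal muscle counts entered the fit as a covariate, the counts were 2151 higher and 1901 lower. Of the called genes named below, 128 kept their call with that covariate and 11 lost it. Among the 128, the fold change lay nearer to 0 by over 1.5-fold in 35 and farther from 0 by over 1.5-fold in 3 (Nfil3, Atf3 and Lrrc52). Levels are CPM, read counts scaled to a common library size. Muscle markers summed to 46366 to 103482 CPM in the CIA libraries and 99590 to 120027 CPM in the healthy libraries, with 6 of 10 markers called lower.

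The tissue mix differed between and within the groups. Libraries held 19487687 to 26670636 counted reads in CIA and 18627303 to 34247317 in healthy tissue. Markers of marrow granulocyte precursors, 8 of 8 called higher, summed to 306 to 3535 CPM in the CIA libraries and 29.6 to 395 CPM in the healthy libraries. Neutrophil markers (6 of 6 higher) summed to 250 to 2494 CPM in CIA and 33.8 to 323 CPM in healthy tissue, and erythroid markers (6 of 6 higher) to 234 to 2705 CPM in CIA and 72.4 to 933 CPM in healthy tissue. Macrophage markers (6 of 6 higher) summed to 98.1 to 325 CPM in CIA and 22.5 to 76.2 CPM in healthy tissue. None of these markers was at 0 in all libraries. The joint was represented in both groups: synovial lining markers summed to 481 to 1551 CPM in CIA and 359 to 908 CPM in healthy tissue, and cartilage markers to 70.6 to 586 CPM in CIA and 8.48 to 239 CPM in healthy tissue. A pair of healthy libraries stood apart. Healthy 4 held 47.5 CPM of T cell markers where the other healthy libraries held at most 1.36 CPM, and its cartilage and fibroblast markers were the lowest of all. Healthy 3 held the highest marrow, neutrophil and erythroid marker sums among the healthy libraries. In bulk tissue, fewer cells of a type and less RNA per cell cannot be told apart, and the part that these cell mixtures play in the results below was not tested.

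**Figure D1:**
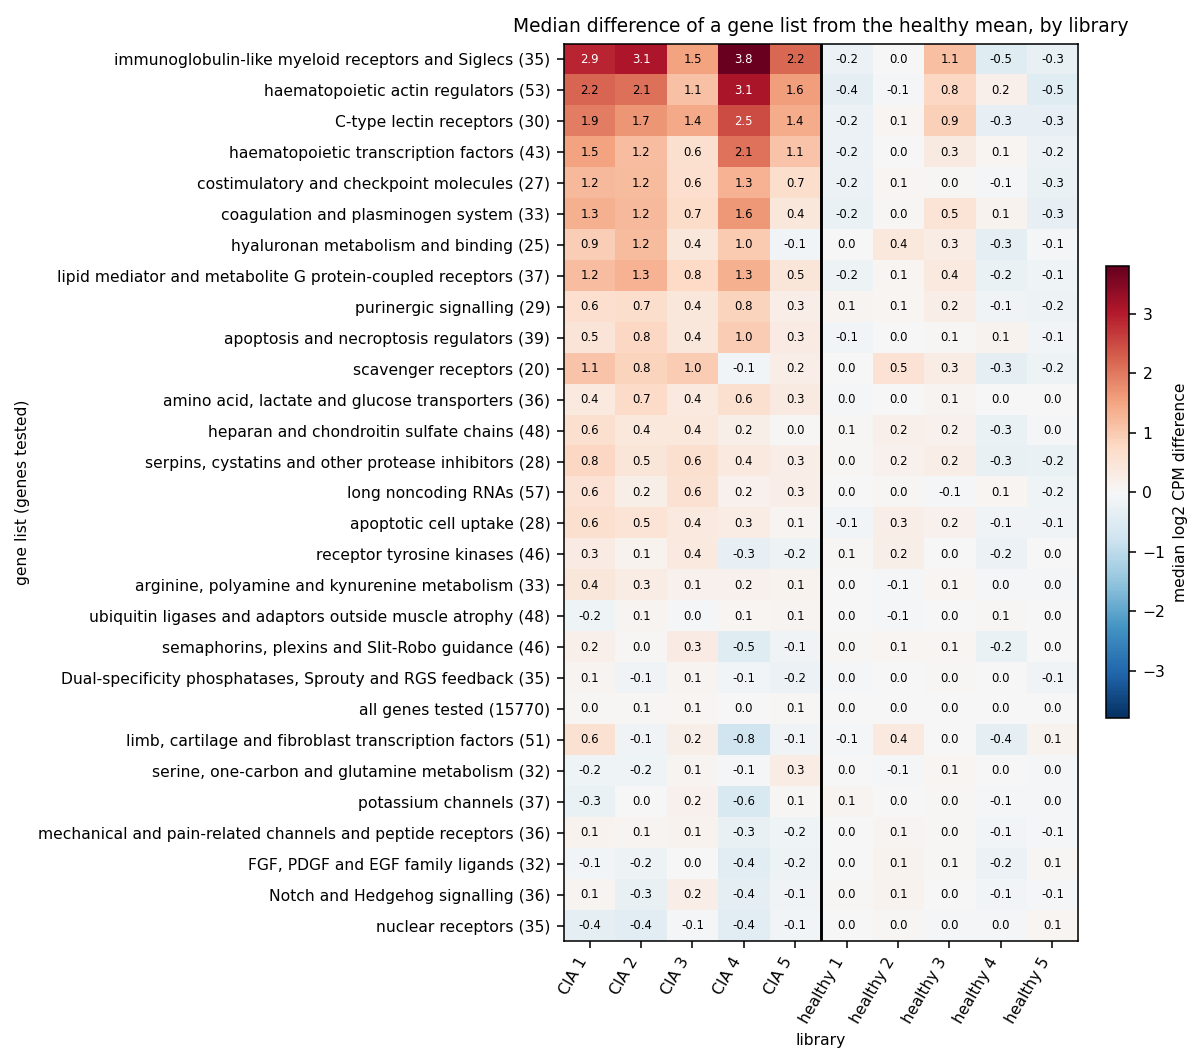
Median log2 CPM difference of each gene list (rows, with the number of genes tested) from the mean of the healthy libraries, for each library (columns, CIA left of the line and healthy right of it). Immunoglobulin-like myeloid receptors ranged from 1.53 in CIA 3 to 3.77 in CIA 4, whereas all genes tested lay between -0.01 and 0.06 in the CIA libraries. The lists were chosen with earlier results of these data known.

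Most listed transcription factors of blood cells were higher in arthritic joints, and most of those of the limb were not called. In a list of haematopoietic transcription factors, 29 of 43 tested genes were called higher and 1 lower, with a median log2 fold change of 1.24, against 0.07 over all genes. The count called higher was 27 to 32 with any one library left out and 11 with muscle share as a covariate. Runx1, a factor of blood stem and myeloid cells (ENSMUSG00000022952, GRCm39 chromosome 16, 92398354 to 92623037), had 30.5, 115, 32.6, 108 and 46 CPM in CIA 1 to 5 and 6.8, 9.46, 7.25, 8.66 and 7.28 CPM in healthy 1 to 5. Every CIA library exceeded every healthy library, and CIA 2 and CIA 4 were the high ones (log2 fold change 3.08 ± 0.41 SE, edgeR adjusted p = 0.000237). Runx2, the factor of bone-forming cells, and Runx3 were higher as well, at 1.67 ± 0.46 and 1.95 ± 0.42 on the log2 scale, so all 3 tested genes of the Runt family were called higher. Spi1, which encodes PU.1, the ETS factor that directs myeloid fate (ENSMUSG00000002111, GRCm39 chromosome 2, 90912735 to 90946101), had 26.3, 41.3, 14.3, 55.8 and 16.2 CPM in CIA 1 to 5 and 2.21, 3.23, 6.65, 1.1 and 2.12 CPM in healthy 1 to 5. The groups did not overlap, and healthy 3 was the highest healthy library (log2 fold change 3.31 ± 0.47 SE, edgeR adjusted p = 0.000273). Pou2f2, an octamer-binding factor of B cells and macrophages, was higher by 2.17 ± 0.29 (log2).

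The member of that list called lower was Nfil3, a repressor that works in innate lymphoid development and in the circadian loop (ENSMUSG00000056749, GRCm39 chromosome 13, 53121245 to 53135109). Nfil3 had 5.81, 18.2, 7.37, 15.9 and 9.75 CPM in CIA 1 to 5 and 83.3, 103, 87.7, 191 and 119 CPM in healthy 1 to 5. No libraries overlapped and healthy 4 was the highest (log2 fold change -3.35 ± 0.63 SE, edgeR adjusted p = 0.00108). Among factors induced by cytokines and stress, Junb, a subunit of AP-1, had 29.8, 285, 57.6, 415 and 55.3 CPM in CIA 1 to 5 and 10.4, 17, 16.8, 21.3 and 11 CPM in healthy 1 to 5. All CIA libraries exceeded all healthy libraries, but CIA 2 and CIA 4 stood several-fold above the other CIA libraries (log2 fold change 3.47 ± 0.76 SE, edgeR adjusted p = 0.00257), and without CIA 4 the log2 fold change was 2.81. Cebpd, a factor of the acute-phase response, was also highest in CIA 2 and CIA 4 and was higher by 2.41 ± 0.47 (log2). Atf3 and Ddit3, stress factors of the same basic leucine zipper family, were lower (log2 -2.32 ± 0.61 and -1.10 ± 0.19). The limma voom alternative ended the call of Atf3 (adjusted p = 0.0615).

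By the family column of the deposited table, 271 of 1153 tested factor genes were higher and 194 lower, a share close to that of all genes. The STAT family, which carries cytokine signals to the nucleus, had 6 of 7 tested members called higher, and 3 with limma voom. Stat4, the member used by interleukin 12, had 0.645, 0.859, 0.23, 2.22 and 0.815 CPM in CIA 1 to 5 and 0.082, 0.102, 0.139, 0.0581 and 0 CPM in healthy 1 to 5. Its levels were at most 2.22 CPM, and the groups did not overlap (log2 fold change 3.56 ± 0.67 SE, edgeR adjusted p = 0.0011). Stat4 did not pass the filter in the 10 libraries alone. Stat2, of the type I interferon response, had 31.2, 27.3, 22.2, 31.1 and 25.1 CPM in CIA 1 to 5 and 13.5, 14.5, 13.7, 15.2 and 9.5 CPM in healthy 1 to 5. The CIA libraries lay close together, between 22.2 and 31.2 CPM, all above the healthy libraries (log2 fold change 1.04 ± 0.15 SE, edgeR adjusted p = 0.000262). In the IRF family, Irf7, Irf8, Irf9 and Irf1 were called higher, by 1.99 ± 0.35, 2.0 ± 0.37, 1.16 ± 0.17 and 0.65 ± 0.15 (log2).

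The Rel family split. Relb and Nfkb2, the pair of the noncanonical NF-kB pathway, were higher by 1.62 ± 0.31 and 1.46 ± 0.30 (log2), and Rela was higher by 0.86 ± 0.16 (log2). Nfkb1 and Rel were not called, at log2 fold changes of 0.26 ± 0.13 (edgeR adjusted p = 0.112) and -0.32 ± 0.19 (edgeR adjusted p = 0.182). Nfkb2 had 19.4, 62.2, 20.5, 51.6 and 65.1 CPM in CIA 1 to 5 and 14.9, 15.3, 15.7, 19.2 and 14.7 CPM in healthy 1 to 5. CIA 1 and CIA 3 stood near the healthy level and the other 3 CIA libraries well above it (log2 fold change 1.46 ± 0.30 SE, edgeR adjusted p = 0.00184). In the E2F family, which controls entry into DNA synthesis, 5 of 10 tested genes were higher and 1 lower, and 1 was higher with muscle share as a covariate. E2f1 was higher by 2.05 ± 0.36 (log2), and E2f6, a repressor of the family, was lower (log2 -0.77 ± 0.14). Mxd1, a Max partner that opposes Myc, had 40.4, 44.9, 18.4, 92.7 and 27.8 CPM in CIA 1 to 5 and 7.42, 8.24, 16.8, 8.13 and 7.94 CPM in healthy 1 to 5. The groups were separate, though healthy 3 at 16.8 CPM came close to CIA 3 (log2 fold change 2.21 ± 0.40 SE, edgeR adjusted p = 0.000876).

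Homeobox genes, which hold many factors of body pattern, were more often lower than higher. Of 81 tested, 6 were higher and 20 lower. The count called lower was 12 without CIA 2 and 13 in the 10 libraries alone. With muscle share as a covariate 3 were higher and 10 lower. In the list of limb, cartilage and fibroblast factors 7 of 51 were higher and 5 lower, with a median log2 change of 0.06. The count of 5 was 10 without CIA 3, 8 without CIA 5, and 3 without any one of CIA 2, CIA 4, healthy 2 or healthy 5. It was 10 with the DESeq2 test, 8 with DESeq2 size factors, 3 in the 10 libraries alone and 2 with muscle share as a covariate. En1, which patterns the ventral limb, had 5.3, 4.72, 5.84, 5.7 and 9.54 CPM in CIA 1 to 5 and 14.4, 11.6, 12.5, 10.3 and 15.8 CPM in healthy 1 to 5. The highest CIA library, CIA 5, stood just under the lowest healthy library, healthy 4 (log2 fold change -1.06 ± 0.20 SE, edgeR adjusted p = 0.00126). In that list Snai1, a regulator of mesenchymal transition, and Foxc2 were higher by 1.77 ± 0.43 and 1.33 ± 0.33 (log2) with overlapping libraries.

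Nuclear receptors, transcription factors switched by lipids and hormones, were called lower in 10 of 35 tested genes and higher in 3, with a median log2 change of -0.29. The count of 3 was 1 without any one of CIA 1, healthy 1, healthy 2 or healthy 4, and 1 with limma voom. The estrogen-related receptors, which drive mitochondrial genes in muscle without a known hormone, were all called lower. Esrrb (ENSMUSG00000021255, GRCm39 chromosome 12, 86407891 to 86568402) had 7, 4.1, 8.02, 4.48 and 15.4 CPM in CIA 1 to 5 and 22.2, 25.4, 24.5, 28.1 and 30.3 CPM in healthy 1 to 5. Its groups were separate, with CIA 5 the highest arthritic library (log2 fold change -1.74 ± 0.30 SE, edgeR adjusted p = 0.000645). Esrrg and Esrra were lower (log2 -1.32 ± 0.24 and -0.91 ± 0.19). Ppara, the fatty acid sensor, had 3.59, 1.95, 3.34, 1.18 and 8.51 CPM in CIA 1 to 5 and 11.8, 11.3, 13, 14.4 and 15.9 CPM in healthy 1 to 5. No libraries overlapped, CIA 5 again being the highest of its group (log2 fold change -1.84 ± 0.39 SE, edgeR adjusted p = 0.00226). Of the 3 called higher, Nr1d2, a repressor of the circadian loop, had the lowest p and was higher by 1.59 ± 0.31 (log2). The muscle marker sums given above were also lower in CIA, and their part in these values was not tested.

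**Figure D2:**
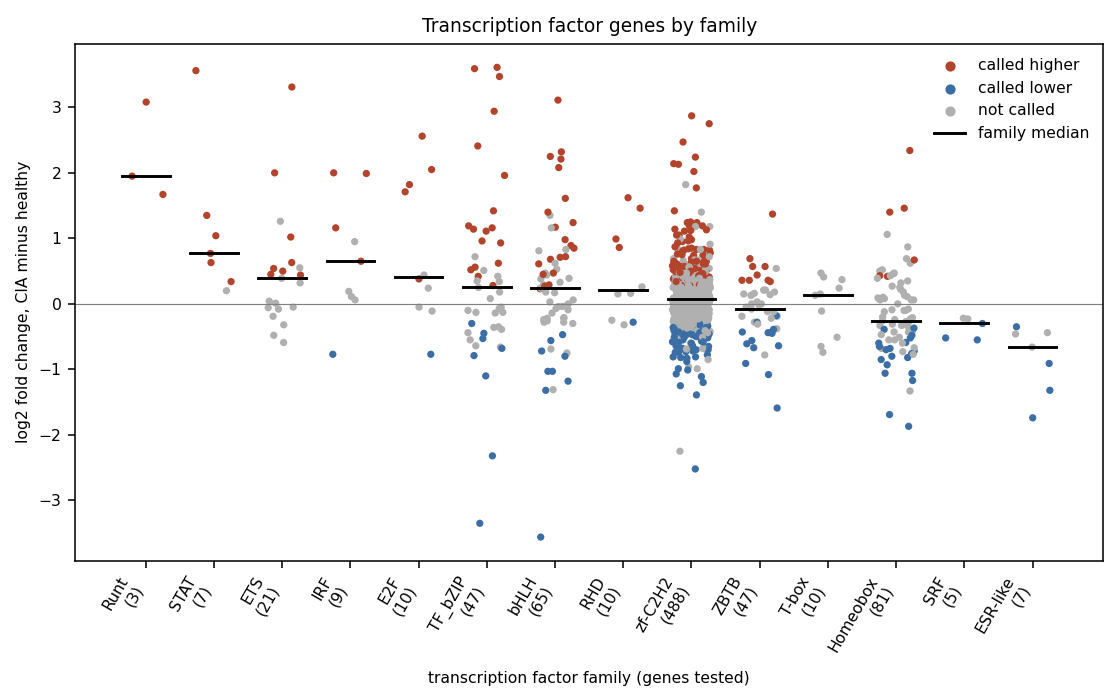
Log2 fold change (CIA minus healthy) of each tested transcription factor gene, by family of the deposited table, with the number of genes below each name. Red points were called higher, blue points lower and grey points neither, and the black bar is the family median. All 3 Runt genes were called higher, and 4 of 7 ESR-like genes were called lower.

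Promoters of called genes were searched for short motifs in windows of 300 bases, 250 before and 50 after the annotated start (RefSeq, GRCm38.p6). Promoters were found for 11137 of the 14199 tested protein-coding genes by symbol, 14237 in all, counting each start of a gene. The ETS motif GAGGAAGT, read on both strands, was in 4.80% of promoters of genes called higher, 2.01% of those called lower and 3.01% of all. The interferon-stimulated response motif GAAANNGAA was in 8.92% of promoters of higher genes, 5.74% of those of lower genes and 7.37% of all. The E-box CACGTG was in 10.9% of promoters of higher genes, 8.80% of those of lower genes and 9.50% of all. The pattern CTANNNNTA is a loose form of the motif of the muscle factor MEF2. It allows any base at N, so many matches need not be MEF2 motifs, and its shares do not describe that motif. It was in 14.6% of promoters of higher genes, 15.4% of those of lower genes and 15.2% of all. The estrogen-related receptor motif TCAAGGTCA was in 0.259% of promoters of higher genes, 0.422% of those of lower genes and 0.267% of all. These shares rest on only 10 of 3858 promoters of higher genes and 12 of 2842 of lower genes, too few to read as a difference. A match in these letters is a description of the window and does not show a bound site. The following promoters are shown because they belong to a haematopoietic signalling gene, a leukotriene receptor and genes of the interferon response described in the text. Capitals mark the ETS motif in the first pair and the interferon motif, which in Isg15 occurs in overlapping copies, in the second pair.
Vav1, chr17:57278850-57279149, plus strand: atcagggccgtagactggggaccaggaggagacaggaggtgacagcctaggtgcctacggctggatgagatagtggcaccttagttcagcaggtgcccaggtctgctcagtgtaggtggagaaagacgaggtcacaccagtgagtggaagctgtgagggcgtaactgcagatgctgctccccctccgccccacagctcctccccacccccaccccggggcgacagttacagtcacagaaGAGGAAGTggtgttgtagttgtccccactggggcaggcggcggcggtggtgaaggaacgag
Ltb4r1, chr14:55765712-55766011, plus strand: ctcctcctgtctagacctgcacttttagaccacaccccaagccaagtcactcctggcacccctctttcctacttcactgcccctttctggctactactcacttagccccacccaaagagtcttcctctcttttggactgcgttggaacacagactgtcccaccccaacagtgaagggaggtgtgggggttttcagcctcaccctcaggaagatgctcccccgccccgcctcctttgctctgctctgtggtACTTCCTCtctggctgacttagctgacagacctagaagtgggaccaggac
Stat2, chr10:128270248-128270547, plus strand: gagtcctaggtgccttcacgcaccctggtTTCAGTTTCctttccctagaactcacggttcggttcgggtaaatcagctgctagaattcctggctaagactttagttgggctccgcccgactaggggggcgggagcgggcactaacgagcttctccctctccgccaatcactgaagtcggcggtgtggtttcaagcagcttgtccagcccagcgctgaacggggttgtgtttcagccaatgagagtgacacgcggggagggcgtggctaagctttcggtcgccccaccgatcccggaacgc
Isg15, chr4:156200769-156201068, minus strand: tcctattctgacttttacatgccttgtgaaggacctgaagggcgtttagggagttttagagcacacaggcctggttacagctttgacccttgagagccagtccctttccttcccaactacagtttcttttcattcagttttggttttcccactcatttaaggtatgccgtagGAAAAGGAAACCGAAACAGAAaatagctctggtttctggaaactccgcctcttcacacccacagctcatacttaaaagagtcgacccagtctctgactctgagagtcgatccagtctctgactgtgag

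Vav1, an exchange factor of blood cells for Rac, had 20.6, 22.2, 6.8, 41 and 11.2 CPM in CIA 1 to 5 and 1.64, 2.14, 4.95, 6.04 and 0.894 CPM in healthy 1 to 5. All CIA libraries were above the healthy ones, and CIA 3 was the closest to them (log2 fold change 2.72 ± 0.53 SE, edgeR adjusted p = 0.00134). Isg15, the ubiquitin-like interferon-induced protein, was higher by 1.94 ± 0.41 (log2), with healthy 4 above CIA 3.

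The 28 lists were chosen with earlier results of these data known, so their order is only a description. The largest median among them was that of the paired immunoglobulin-like receptors of myeloid cells and the sialic acid-binding Siglecs. Through these receptors the cells sense their neighbours. Of 35 tested genes 33 were called higher and 1 lower, with a median log2 change of 2.82. Sirpa, the receptor for the do-not-eat-me ligand CD47 (ENSMUSG00000037902, GRCm39 chromosome 2, 129434755 to 129474148), had 81.3, 102, 59.1, 103 and 46.1 CPM in CIA 1 to 5 and 22.7, 22.9, 30.4, 15.5 and 18.7 CPM in healthy 1 to 5. Every CIA library exceeded every healthy library (log2 fold change 1.83 ± 0.22 SE, edgeR adjusted p = 0.000169). Cd200r1 and Cd200r4, inhibitory and activating relatives in the CD200 receptor cluster, were higher by 2.05 ± 0.25 and 3.30 ± 0.33 (log2). Trem2, a lipid sensor of macrophages, had 17.6, 21.2, 9.14, 7.18 and 7.76 CPM in CIA 1 to 5 and 1.56, 2.79, 2.4, 0.697 and 0.695 CPM in healthy 1 to 5. Its high libraries were CIA 1 and CIA 2, and the groups did not overlap (log2 fold change 2.93 ± 0.45 SE, edgeR adjusted p = 0.00038). Tyrobp, the signalling adaptor of Trem2 and other activating receptors, was higher by 2.99 ± 0.43 (log2). The gene called lower was Cd300lg, a family member carried by endothelium, at -0.54 ± 0.18 on the log2 scale (edgeR adjusted p = 0.0252). That call was lost without CIA 2, CIA 4 or healthy 1 and with muscle share as a covariate (edgeR adjusted p from 0.0503 to 0.161).

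C-type lectin receptors, which bind microbial and self sugars, were called higher in 18 of 30 tested genes and lower in 1, with a median log2 change of 1.8. Clec7a, which encodes the beta-glucan receptor Dectin-1 (ENSMUSG00000079293, GRCm39 chromosome 6, 129438554 to 129449742), had 12.5, 13.6, 4.72, 16.7 and 8.9 CPM in CIA 1 to 5 and 0.533, 1.12, 2.82, 1.63 and 0.794 CPM in healthy 1 to 5. The lowest CIA library, CIA 3, still exceeded the highest healthy library, healthy 3 (log2 fold change 3.03 ± 0.42 SE, edgeR adjusted p = 0.000256). Clec4n, which encodes Dectin-2, was higher by 4.13 ± 0.60 (log2), and Clec4d by 3.89 ± 0.54 (log2), or 4.66 without healthy 3. The member called lower, Clec16a, is a membrane-trafficking gene with a lectin-like name, and it was lower (log2 -0.68 ± 0.09).

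Scavenger receptors were called higher in 8 of 20 tested genes (4 with muscle share as a covariate) and lower in 1, with a median log2 change of 0.58. Msr1, the class A receptor for modified lipoproteins, had 10.2, 24.7, 7.45, 14.4 and 5.14 CPM in CIA 1 to 5 and 0.983, 2.18, 1.78, 0.407 and 0.695 CPM in healthy 1 to 5. CIA 2 was the highest and no libraries overlapped (log2 fold change 3.33 ± 0.50 SE, edgeR adjusted p = 0.000328). Cd36, the fatty acid transporter that muscle, fat and endothelium also express, was called lower at -0.70 ± 0.20 on the log2 scale (edgeR adjusted p = 0.0124), with CIA 5 inside the healthy range, and the call was lost with muscle share as a covariate (edgeR adjusted p = 0.117). Among genes for the uptake of dying cells 13 of 28 were higher and 1 lower, and 6 were higher with muscle share as a covariate. The cholesterol exporter Abca1 had 51.6, 70.1, 52.8, 25.8 and 54.4 CPM in CIA 1 to 5 and 15.2, 20.9, 18.6, 18.7 and 14.9 CPM in healthy 1 to 5. All CIA libraries were higher, and CIA 4 was the lowest of its group (log2 fold change 1.53 ± 0.22 SE, edgeR adjusted p = 0.000278). Anxa1, a phospholipid-binding protein that limits neutrophil entry, was higher by 2.05 ± 0.31 (log2).

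Among costimulatory and checkpoint molecules 17 of 27 tested genes were higher (9 with muscle share as a covariate) and 1 lower, with a median log2 change of 1.10. Havcr2, which encodes the inhibitory receptor TIM-3, had 2.12, 6.64, 2.03, 1.85 and 0.496 CPM in CIA 1 to 5 and 0.205, 0.374, 0.244, 0.29 and 0.199 CPM in healthy 1 to 5. No libraries overlapped, and CIA 2 stood above the other arthritic libraries (log2 fold change 3.31 ± 0.58 SE, edgeR adjusted p = 0.000722), with a log2 fold change of 2.61 without CIA 2. Cd48 and Cd244a, a ligand and its receptor on leukocytes, were higher by 1.94 ± 0.34 and 3.81 ± 0.64 (log2), and Cd244a by 4.67 without healthy 3. Ctla4, the T cell inhibitor, was called lower (log2 fold change -2.15 ± 0.59, edgeR adjusted p = 0.00916), but healthy 4 held 3.54 CPM where the next healthy library held 0.662 CPM. Without healthy 4 the log2 fold change was -1.17, and the call was lost with limma voom (adjusted p = 0.11) and with muscle share as a covariate (edgeR adjusted p = 0.0789).

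G protein-coupled receptors, by the Gene Ontology column, were called higher in 41 of 116 tested genes and lower in 15. In a list of receptors for lipid mediators and metabolites 22 of 37 were higher (11 with muscle share as a covariate) and 1 lower, with a median log2 change of 1.00. Gpr132, a receptor for oxidized fatty acids and lactate on macrophages, had 2.44, 3.93, 1.96, 3.66 and 1.45 CPM in CIA 1 to 5 and 0.164, 0.34, 0.523, 0.523 and 0.298 CPM in healthy 1 to 5. The lowest CIA library stood well above the highest healthy library (log2 fold change 2.87 ± 0.34 SE, edgeR adjusted p = 0.000169). Cnr2, the cannabinoid receptor of leukocytes, and Gpr65, an acid sensor, were higher by 2.93 ± 0.47 and 2.49 ± 0.43 (log2). Ltb4r1, the high-affinity leukotriene B4 receptor whose promoter is shown above, had 9.4, 7.66, 2.8, 27.1 and 5.64 CPM in CIA 1 to 5 and 0.246, 0.545, 2.3, 0.174 and 0.563 CPM in healthy 1 to 5. CIA 4 was the highest by far and healthy 3 stood near CIA 3 (log2 fold change 3.73 ± 0.71 SE, edgeR adjusted p = 0.00117), and the log2 fold change was 3.0 without CIA 4 and 4.70 without healthy 3. Ptger4, a prostaglandin E2 receptor, was higher by 1.09 ± 0.24 (log2). The opposite call, S1pr5 at -0.83 ± 0.31 on the log2 scale (edgeR adjusted p = 0.0427), was lost without the filter (edgeR adjusted p = 0.0768), with DESeq2 (adjusted p = 0.0575) and without any one of CIA 2, CIA 3, CIA 4, healthy 1 or healthy 4 (edgeR adjusted p from 0.0589 to 0.151). It was also lost with limma voom (adjusted p = 0.129), in the fit of the 10 libraries alone (edgeR adjusted p = 0.08) and with muscle share as a covariate (edgeR adjusted p = 0.12).

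Genes that sense or handle extracellular nucleotides were called higher in 13 of 29 tested genes and lower in 7 (6 and 4 with muscle share as a covariate), with a median log2 change of 0.65. P2rx7, the ATP-gated channel upstream of interleukin 1 release, had 11.2, 9.78, 12.7, 6.47 and 6.2 CPM in CIA 1 to 5 and 5.57, 4.83, 4.84, 3.08 and 2.88 CPM in healthy 1 to 5. CIA 4 was among the low arthritic libraries here, and the groups did not overlap (log2 fold change 1.13 ± 0.24 SE, edgeR adjusted p = 0.00208). P2rx4 and P2rx1, other ATP-gated channels, were higher by 1.23 ± 0.19 and 2.54 ± 0.51 (log2), as was the lysosomal nucleoside transporter Slc29a3 by 0.96 ± 0.15 (log2). On the adenosine side Adk, the kinase that removes adenosine, had 71.2, 47.1, 94.8, 46.4 and 95.7 CPM in CIA 1 to 5 and 131, 123, 126, 118 and 128 CPM in healthy 1 to 5. Healthy libraries were close together at 118 to 131 CPM, all above CIA, in which CIA 3 and CIA 5 were the highest (log2 fold change -0.82 ± 0.18 SE, edgeR adjusted p = 0.00242).

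Receptor tyrosine kinases were called in both directions, 9 higher and 9 lower of 46 tested, with a median log2 change of 0.18. Those counts were 5 and 4 with muscle share as a covariate, and the count called lower was 5 without CIA 2 or CIA 5 and 4 without CIA 4, healthy 1, healthy 2 or healthy 5. With limma voom, and in the 10 libraries alone, 5 were lower. Flt3 and Kit, receptors of blood precursors, were among those called higher: Flt3 by 2.79 ± 0.42 (log2) and Kit by 1.90 ± 0.35 (log2). Igf1r, the insulin-like growth factor receptor, had 39.8, 87.2, 41.2, 103 and 42.3 CPM in CIA 1 to 5 and 25.2, 26.1, 25.1, 26.6 and 25 CPM in healthy 1 to 5. The healthy libraries were nearly equal, and CIA 2 and CIA 4 were the highest (log2 fold change 1.29 ± 0.24 SE, edgeR adjusted p = 0.00102). Kdr, the main VEGF receptor of endothelium (ENSMUSG00000062960, GRCm39 chromosome 5, 76093487 to 76139118), had 76.6, 31.9, 52.9, 40.1 and 37.6 CPM in CIA 1 to 5 and 113, 92.7, 90.5, 102 and 110 CPM in healthy 1 to 5. Kdr was called lower with separate groups, CIA 1 being the highest arthritic library (log2 fold change -1.09 ± 0.19 SE, edgeR adjusted p = 0.000631). Flt1 was lower (log2 -0.55 ± 0.11). Endothelial markers, which include Kdr, summed to 256 to 418 CPM in CIA and 357 to 560 CPM in healthy tissue. Of the 5, 2 were called lower, Kdr itself among them, and 1 higher. The sum is thus not separate from the Kdr values, and the part of these markers in the values above was not tested. Pdgfra, the fibroblast receptor, was not called (log2 fold change 0.72 ± 0.37, edgeR adjusted p = 0.12).

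Growth factor ligands of the FGF, PDGF and EGF families were called higher in 6 and lower in 9 of 32 tested genes, and in 3 and 5 with muscle share as a covariate. In a fit of the 10 CIA and healthy libraries alone, 1 was higher. Hgf, the ligand of Met, had 1.34, 1.65, 1.65, 1.81 and 0.638 CPM in CIA 1 to 5 and 0.205, 0.272, 0.348, 0.0581 and 0.0993 CPM in healthy 1 to 5. CIA 5 was the lowest of its group but remained above healthy (log2 fold change 2.77 ± 0.41 SE, edgeR adjusted p = 0.000297). Nrg1, which activates ErbB receptors, was higher by 5.12 ± 0.86 (log2) with at most 0.116 CPM in healthy tissue, and this value was 4.33 without CIA 4 and 5.81 without healthy 4. Fgf6, a growth factor of muscle, had 7.83, 2.08, 5.03, 1.52 and 3.08 CPM in CIA 1 to 5 and 17.4, 13.9, 17.3, 14.7 and 20.3 CPM in healthy 1 to 5. All CIA libraries were lower (log2 fold change -2.11 ± 0.40 SE, edgeR adjusted p = 0.00119).

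In Notch and Hedgehog signalling 6 of 36 tested genes were higher and 6 lower, with a median log2 change of -0.13. Notch2 was higher by 1.03 ± 0.18 (log2), with the nuclear mediator Rbpj higher by 0.53 ± 0.11 (log2), while the ligand Jag2 was lower (log2 -0.70 ± 0.16), all without overlap between the groups. Guidance molecules first described in axons were called higher in 10 of 46 tested genes and lower in 7, and in 5 and 4 with muscle share as a covariate. The count called lower was 4 without healthy 1, and in the 10 libraries alone 6 were higher. Plxnb2 and Plxnc1, receptors for semaphorins, were higher by 1.03 ± 0.17 and 2.15 ± 0.41 (log2), and Nrp1, a co-receptor for semaphorins and VEGF, was lower (log2 -0.56 ± 0.12).

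**Figure D3:**
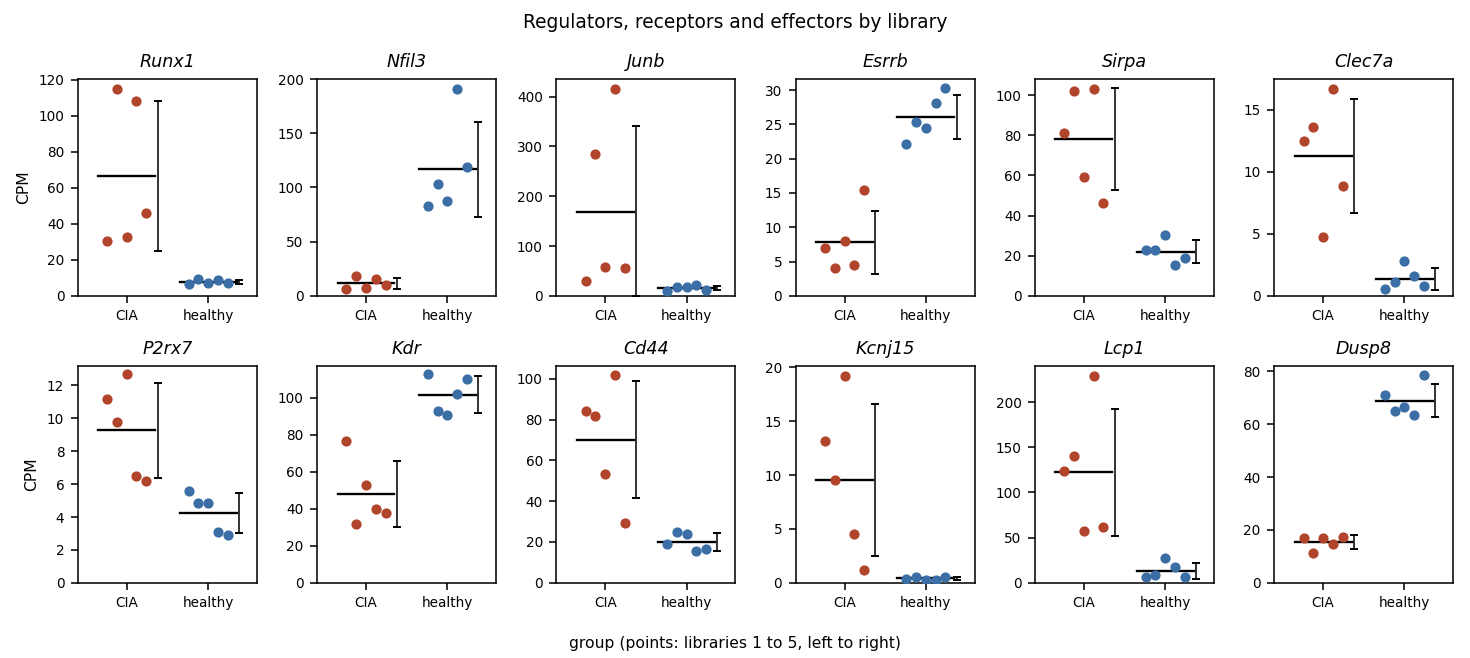
CPM of genes described in the text in each library, CIA left and healthy right, with libraries 1 to 5 from left to right within a group; bars are means and error bars are SD (n = 5), stopped at 0. Runx1 ranged from 30.5 to 115 CPM in the CIA libraries and from 6.8 to 9.46 CPM in the healthy libraries, and Dusp8 from 11.2 to 17.3 CPM in the CIA libraries and from 63.3 to 78.7 CPM in the healthy libraries.

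Genes of the sugar chains of matrix were called in both directions. Of 25 tested genes of hyaluronan metabolism and binding 8 were higher and 2 lower, with a median log2 change of 1.03. The count called higher was 13 without CIA 5 and 4 with muscle share as a covariate. Cd44, the main hyaluronan receptor (ENSMUSG00000005087, GRCm39 chromosome 2, 102641486 to 102732010), had 84, 81.6, 53.5, 102 and 29.3 CPM in CIA 1 to 5 and 19, 24.9, 24.1, 15.6 and 16.6 CPM in healthy 1 to 5. CIA 5 was the lowest arthritic library and still exceeded all healthy ones (log2 fold change 1.8 ± 0.29 SE, edgeR adjusted p = 0.000431). The lysosomal enzymes Hexa and Gusb, which degrade hyaluronan fragments among other chains, were higher by 0.83 ± 0.09 and 0.90 ± 0.12 (log2). The synthases did not move together: Has3 was lower (log2 -1.07 ± 0.25), and Has1 and Has2 were not called (log2 fold change 1.2 ± 0.57, edgeR adjusted p = 0.0963, and 1.19 ± 0.65, edgeR adjusted p = 0.143). Has1 was called without healthy 2 (log2 fold change 1.83, edgeR adjusted p = 0.0185) or CIA 5 (log2 fold change 1.44, edgeR adjusted p = 0.0405), and the Has2 value was 0.21 without CIA 2 and 0.03 with muscle share as a covariate.

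Genes of heparan and chondroitin sulfate were called higher in 15 of 48 tested and lower in 4 (1 with muscle share as a covariate), with a median log2 change of 0.45. Sdc1, the transmembrane proteoglycan syndecan-1, had 17.5, 29.1, 34.9, 14.8 and 7.2 CPM in CIA 1 to 5 and 4.92, 7.08, 6.27, 3.54 and 6.42 CPM in healthy 1 to 5. CIA 3 was highest and CIA 5 lowest, with no overlap (log2 fold change 1.87 ± 0.36 SE, edgeR adjusted p = 0.00126). Hpse, the enzyme that cleaves heparan sulfate, was higher by 2.27 ± 0.41 (log2), and Srgn, the proteoglycan of leukocyte granules, by 1.65 ± 0.31 (log2). Hspg2, the basement membrane proteoglycan perlecan, was lower (log2 -0.53 ± 0.14), a call lost with muscle share as a covariate (edgeR adjusted p = 0.0518).

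In the coagulation and plasminogen list 20 of 33 tested genes were higher (7 with muscle share as a covariate) and 1 lower, with a median log2 change of 1.08. F7, the clotting protease that tissue factor activates, had 0.922, 1.26, 0.921, 0.999 and 1.56 CPM in CIA 1 to 5 and 0.082, 0.034, 0.139, 0.116 and 0.0331 CPM in healthy 1 to 5. Levels were at most 1.56 CPM, and the groups were far apart (log2 fold change 3.79 ± 0.38 SE, edgeR adjusted p = 0.000135). F7 passed the filter through libraries outside the healthy group, so it could hardly be called lower. Tissue factor itself, F3, was not called (log2 fold change 0.22 ± 0.26, edgeR adjusted p = 0.504). Itgb3, an integrin subunit of platelets, megakaryocytes and osteoclasts, had 83.5, 46.6, 38.1, 118 and 34.7 CPM in CIA 1 to 5 and 5.74, 6.26, 19.6, 9.01 and 5.43 CPM in healthy 1 to 5. CIA 4 and CIA 1 were the highest, as in the marrow and erythroid marker sums, though the other arthritic libraries followed different orders (log2 fold change 2.80 ± 0.45 SE, edgeR adjusted p = 0.000494). Plaur, the urokinase receptor, was higher by 2.21 ± 0.45 (log2), whereas urokinase, Plau, was not called (log2 fold change 0.32 ± 0.23, edgeR adjusted p = 0.276). The thrombin receptor F2r was lower (log2 -0.64 ± 0.16), with CIA 5 inside the healthy range.

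Protease inhibitors were called higher in 9 of 28 tested genes (14 without the filter) and lower in 1, with a median log2 change of 0.45. Cstb, the inhibitor of cysteine cathepsins, had 18.4, 30.4, 15, 14.5 and 11.1 CPM in CIA 1 to 5 and 5.16, 5.45, 7.28, 6.8 and 5.43 CPM in healthy 1 to 5. The healthy libraries were close together and below every CIA library (log2 fold change 1.57 ± 0.22 SE, edgeR adjusted p = 0.000259). Serpina3n, an acute-phase inhibitor of serine proteases, had 85.6, 513, 22.2, 249 and 22.5 CPM in CIA 1 to 5 and 10.8, 14.6, 13, 5.29 and 6.62 CPM in healthy 1 to 5. CIA 2 and CIA 4 were the highest (log2 fold change 4.14 ± 0.83 SE, edgeR adjusted p = 0.00154), and the log2 fold change was 3.23 without CIA 2 and 1.92 with muscle share as a covariate, where the call was lost (edgeR adjusted p = 0.0669).

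Enzymes of metabolism were called in both directions. In arginine, polyamine and kynurenine metabolism 14 of 33 tested genes were higher (8 with muscle share as a covariate) and 7 lower, with a median log2 change of 0.16. Acod1, which makes itaconate in activated macrophages, had 0.922, 3.63, 0.653, 4.77 and 0.993 CPM in CIA 1 to 5 and 0, 0, 0.0697, 0.0581 and 0.0331 CPM in healthy 1 to 5. Healthy libraries held at most 0.0697 CPM and a pair held none, so the size of the fold change rests on few reads (log2 fold change 5.96 ± 0.80 SE, edgeR adjusted p = 0.000237). Amd1, which makes the aminopropyl donor for polyamines, had 138, 69.1, 173, 91.2 and 124 CPM in CIA 1 to 5 and 314, 210, 344, 252 and 378 CPM in healthy 1 to 5. All CIA libraries were lower, with CIA 2 the lowest (log2 fold change -1.33 ± 0.24 SE, edgeR adjusted p = 0.00083). The spermine genes Sms and Smox were lower too (log2 -0.62 ± 0.15 and -1.04 ± 0.23), and Sat1, which acetylates polyamines for export, was higher by 1.40 ± 0.27 (log2). Nos1, the nitric oxide synthase of muscle and nerve, was lower (log2 -1.05 ± 0.25).

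In serine, one-carbon and glutamine metabolism 8 of 32 tested genes were higher (5 with muscle share as a covariate) and 7 lower, with a median log2 change of 0.02. The count called lower was 11 without CIA 5. Psat1, of serine synthesis, had 11.8, 15, 6.41, 19.6 and 11.2 CPM in CIA 1 to 5 and 3.52, 3.95, 4.04, 5.93 and 2.45 CPM in healthy 1 to 5. CIA 3 came close to healthy 4, but the groups did not overlap (log2 fold change 1.69 ± 0.27 SE, edgeR adjusted p = 0.000431). The folate enzyme Mthfd1l and the branched-chain transaminase Bcat1 were higher by 2.31 ± 0.42 and 2.27 ± 0.39 (log2). The aspartate transaminases of muscle metabolism, Got2 and Got1, were lower (log2 -0.85 ± 0.16 and -0.95 ± 0.19). Transporters of amino acids, lactate and glucose were called higher in 18 of 36 tested genes (11 with muscle share as a covariate) and lower in 6. Slc7a5, a carrier of large neutral amino acids, had 9.26, 13.2, 6.22, 24.7 and 7.06 CPM in CIA 1 to 5 and 3.61, 2.93, 5.36, 3.6 and 3.18 CPM in healthy 1 to 5. CIA 4 was the highest (log2 fold change 1.69 ± 0.35 SE, edgeR adjusted p = 0.00187). Slc2a4, the insulin-regulated glucose carrier of muscle and fat, and Slc38a4, an amino acid carrier, were lower (log2 -1.12 ± 0.26 and -1.31 ± 0.24).

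Ion channels by Gene Ontology were called higher in 20 of 92 tested genes and lower in 24. Potassium channels were higher in 11 of 37 and lower in 9, and in 3 and 4 with muscle share as a covariate. In the 10 libraries alone 7 were higher. Kcnj15, an inward rectifier (ENSMUSG00000062609, GRCm39 chromosome 16, 95058417 to 95101119), had 13.2, 9.58, 19.2, 4.55 and 1.21 CPM in CIA 1 to 5 and 0.328, 0.545, 0.279, 0.29 and 0.563 CPM in healthy 1 to 5. CIA 3 was the highest and CIA 5 the lowest arthritic library, and healthy levels were at most 0.563 CPM (log2 fold change 4.53 ± 0.62 SE, edgeR adjusted p = 0.000256). Kcnn4, the calcium-activated channel of leukocytes, was higher by 1.99 ± 0.38 (log2), and Kcna7, a channel of muscle, was lower (log2 -0.87 ± 0.12). Lrrc52, an auxiliary subunit of large-conductance channels, had 0.138, 0.165, 0.0768, 0.777 and 0.39 CPM in CIA 1 to 5 and 2.09, 3.44, 3.52, 2.9 and 3.11 CPM in healthy 1 to 5. The groups were separate and CIA 4 was the highest arthritic library (log2 fold change -3.25 ± 0.62 SE, edgeR adjusted p = 0.00119), with -3.91 without CIA 4.

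Among mechanical and pain-related channels and peptide receptors 5 of 36 tested genes were higher and 8 lower. The count of 8 was 5 without CIA 2 and 4 with muscle share as a covariate. In the 10 libraries alone 3 were higher and 5 lower. Tacr1, the receptor of substance P, had 1.24, 0.991, 4.03, 0.703 and 0.355 CPM in CIA 1 to 5 and 0.082, 0.17, 0.174, 0.174 and 0.0331 CPM in healthy 1 to 5. All levels were low and CIA 3 was the highest (log2 fold change 3.51 ± 0.70 SE, edgeR adjusted p = 0.00143), and the log2 fold change was 2.67 without CIA 3. Trpv2, a calcium channel of macrophages and muscle, was higher by 1.18 ± 0.20 (log2). The mechanically gated channel Piezo1 was not called (log2 fold change 0.23 ± 0.18, edgeR adjusted p = 0.296).

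Inside the cell, regulators of the actin cytoskeleton and its small GTPases that blood cells use were called higher in 48 of 53 tested genes and lower in 1, with a median log2 change of 2.06. Lcp1, the leukocyte actin bundler L-plastin, had 124, 140, 56.9, 229 and 61.8 CPM in CIA 1 to 5 and 6.64, 8.61, 27.6, 17 and 6.52 CPM in healthy 1 to 5. CIA 3 and CIA 5 were the low arthritic libraries, and healthy 3 was the highest healthy one (log2 fold change 3.20 ± 0.48 SE, edgeR adjusted p = 0.000349). Evi2a, a membrane protein gene within an intron of Nf1, had 10, 10.7, 7.29, 8.66 and 5.03 CPM in CIA 1 to 5 and 2.34, 3, 3.1, 2.03 and 2.38 CPM in healthy 1 to 5. The groups were well apart (log2 fold change 1.69 ± 0.21 SE, edgeR adjusted p = 0.000169). Capg, an actin-capping protein, was higher by 1.62 ± 0.23 (log2). Arhgef6, an exchange factor for small GTPases, was the member called lower (log2 -0.81 ± 0.15).

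Cell death regulators were called higher in 23 of 39 tested genes (13 with muscle share as a covariate) and lower in 2, with a median log2 change of 0.63. Zbp1, the sensor of Z-form nucleic acids that triggers necroptosis, had 8.2, 11.3, 3.23, 10.7 and 5.67 CPM in CIA 1 to 5 and 0.574, 0.579, 0.348, 1.05 and 0.132 CPM in healthy 1 to 5. CIA 3 was the lowest arthritic library and exceeded every healthy one (log2 fold change 3.92 ± 0.51 SE, edgeR adjusted p = 0.000215). Bmf and Apaf1, of the mitochondrial death pathway, were higher by 1.56 ± 0.23 and 1.8 ± 0.28 (log2). Bcl2l2, a survival protein, was lower (log2 -0.27 ± 0.06), a small change without overlap between groups.

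Feedback genes of kinase and G protein signalling were called higher in 12 of 35 tested genes (5 with muscle share as a covariate) and lower in 11. Dusp8, a phosphatase of stress-activated kinases (ENSMUSG00000037887, GRCm39 chromosome 7, 141633227 to 141649580), had 17.1, 11.2, 16.9, 14.5 and 17.3 CPM in CIA 1 to 5 and 71.2, 65, 66.5, 63.3 and 78.7 CPM in healthy 1 to 5. Both groups were tight and far apart (log2 fold change -2.16 ± 0.28 SE, edgeR adjusted p = 0.000234). Rgs4, which shortens G protein signals, was lower (log2 -1.15 ± 0.16), and the adaptor Dok1 was higher by 1.90 ± 0.31 (log2). Ubiquitin ligases and adaptors were called evenly, 17 higher (11 with muscle share as a covariate) and 17 lower of 48. Kbtbd13, an adaptor of muscle, had 23.5, 15.6, 23.1, 12.6 and 18.3 CPM in CIA 1 to 5 and 58.1, 51.8, 49, 36.1 and 49.3 CPM in healthy 1 to 5. All CIA libraries were lower (log2 fold change -1.39 ± 0.17 SE, edgeR adjusted p = 0.000169). Asb2, another adaptor of muscle, was lower (log2 -1.71 ± 0.35). Among those called higher, Trim30a, which interferon induces, was higher by 2.03 ± 0.31 (log2) and Uba7, the activating enzyme for Isg15, by 1.45 ± 0.22 (log2).

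Long noncoding RNAs, transcripts without a protein product, were called in both directions. Of 1569 such genes tested, 245 were higher (15.6%) and 279 lower (17.8%), against 27.1% and 19.7% of 14199 protein-coding genes. With muscle share as a covariate the counts were 136 and 140, and without the filter 413 were higher. Of the 245, 109 overlap a tested coding gene, 98 of them on the opposite strand, and in 64 the coding partner was called in the same direction. Of the 279 called lower, 130 overlap a coding gene, 122 on the opposite strand, and in 61 the partner was called the same way. Overlap was not particular to called genes: of the 1045 not called, 533 overlap a tested coding gene, 479 on the opposite strand. The strand setting of the counting is not given in the sources used here, so reads of such pairs cannot be told apart.

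In a list of 57 tested noncoding RNA genes with known names 25 were higher (15 with muscle share as a covariate) and 2 lower, with a median log2 change of 0.39. The count of 2 was 4 without CIA 3 or CIA 5 and 1 without CIA 1, CIA 2, CIA 4, healthy 1 or healthy 4. It was also 1 without the filter, in the 10 libraries alone and with muscle share as a covariate. Host genes of small nucleolar RNAs were among those called higher. Snhg17 had 7.28, 12.9, 9.94, 14.2 and 7.13 CPM in CIA 1 to 5 and 3.73, 4.46, 3.55, 4.53 and 3.67 CPM in healthy 1 to 5. All CIA libraries exceeded all healthy ones (log2 fold change 1.37 ± 0.20 SE, edgeR adjusted p = 0.000288). Snhg12 was higher by 0.94 ± 0.18 (log2), and Gas5, a host gene whose RNA accumulates when growth stops, by 1.18 ± 0.26 (log2) with overlapping libraries. Mir22hg, the host gene of miR-22, had 43.1, 57.2, 52.6, 58.7 and 44.3 CPM in CIA 1 to 5 and 17.7, 19.1, 19.2, 30 and 20.3 CPM in healthy 1 to 5. Healthy 4 was the highest of its group (log2 fold change 1.27 ± 0.24 SE, edgeR adjusted p = 0.00117). Mir17hg, the host of the miR-17 cluster, was higher by 1.53 ± 0.35 (log2), a call lost with muscle share as a covariate (edgeR adjusted p = 0.0507).

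The largest rises by the naming rule were in F630028O10Rik and Serpina3h. F630028O10Rik (ENSMUSG00000078122, GRCm39 chromosome X, 95283498 to 95287267) had 40, 24.9, 8.83, 64.6 and 17.2 CPM in CIA 1 to 5 and 1.72, 2.42, 8.6, 1.45 and 1.42 CPM in healthy 1 to 5. Healthy 3, high in marrow and neutrophil markers, came close to CIA 3 (log2 fold change 3.30 ± 0.62 SE, edgeR adjusted p = 0.0011), and the log2 fold change was 4.13 without healthy 3. Serpina3h, a member of the Serpina3 cluster that the table lists as long noncoding, had 2.81, 10.5, 3.88, 8.95 and 2.16 CPM in CIA 1 to 5 and 0.246, 0.272, 0.906, 1.39 and 0.298 CPM in healthy 1 to 5. CIA 2 and CIA 4 were the highest, as for its neighbour Serpina3n (log2 fold change 3.23 ± 0.61 SE, edgeR adjusted p = 0.00114).

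Among falls, Lincmd1, a muscle differentiation RNA (ENSMUSG00000099906, GRCm39 chromosome 1, 20740106 to 20754522), had 2.21, 2.11, 0.883, 0.666 and 9.29 CPM in CIA 1 to 5 and 18.6, 31.5, 26.3, 22.5 and 31.5 CPM in healthy 1 to 5. CIA 5 was the highest arthritic library (log2 fold change -3.10 ± 0.75 SE, edgeR adjusted p = 0.00448), and the log2 fold change was -4.15 without CIA 5. The limma voom alternative placed its adjusted p at 0.0501. Gm45670, which overlaps Dhx32 on the opposite strand, had 1.06, 0.0661, 0.192, 0.148 and 0.922 CPM in CIA 1 to 5 and 3.2, 4.56, 4.77, 3.95 and 6.16 CPM in healthy 1 to 5. No libraries overlapped (log2 fold change -3.27 ± 0.55 SE, edgeR adjusted p = 0.000582). Oip5os1 (ENSMUSG00000085438, GRCm39 chromosome 2, 119424757 to 119437983), an abundant RNA transcribed beside Oip5, had 425, 328, 490, 261 and 552 CPM in CIA 1 to 5 and 711, 652, 648, 582 and 806 CPM in healthy 1 to 5. Here the fall was smaller and the groups did not overlap (log2 fold change -0.72 ± 0.17 SE, edgeR adjusted p = 0.00382). Abundant RNAs often used as landmarks were not called: Neat1 at 0.43 ± 0.24 on the log2 scale (edgeR adjusted p = 0.157), H19 at -0.58 ± 0.33 (edgeR adjusted p = 0.166) and Malat1 at 0.12 ± 0.15 (edgeR adjusted p = 0.532). H19 reached 4040 CPM in CIA 5 and 1108 to 1468 CPM in the other arthritic libraries, against 1967 to 3268 CPM in the healthy libraries. Without CIA 5 it was called lower (log2 fold change -1.12, edgeR adjusted p = 0.000811), as with limma voom (log2 fold change -0.78, adjusted p = 0.0448). Malat1 was at -0.08 on the log2 scale with muscle share as a covariate.

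**Figure D4:**
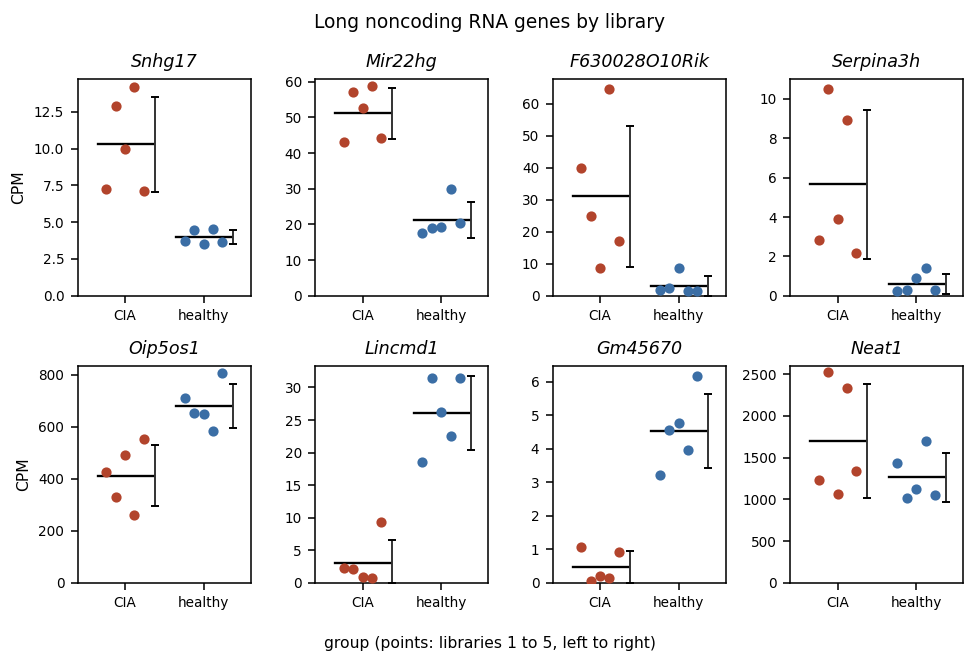
CPM of long noncoding RNA genes in each library, CIA left and healthy right, with libraries 1 to 5 from left to right within a group; bars are means and error bars are SD (n = 5), stopped at 0. Lincmd1 ranged from 0.666 to 9.29 CPM in the CIA libraries and from 18.6 to 31.5 CPM in the healthy libraries, whereas Neat1 overlapped.

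The arthritic libraries differed among themselves. The distance of a library from the mean of the others in its group, as the root mean square log2 difference over tested genes, was 0.55, 0.52, 0.69, 0.83 and 0.63 in CIA 1 to 5 and 0.40, 0.38, 0.49, 0.68 and 0.40 in healthy 1 to 5. CIA 4 was the farthest, and healthy 4 lay inside the CIA range. The means were 0.64 ± 0.12 in CIA and 0.47 ± 0.13 in healthy tissue (SD, n = 5 each), a difference of 0.17 that did not pass an exact two-sided permutation test (p = 0.0635). The distances within a group share libraries, so the p-values of this test are approximate. Without healthy 4 the difference was 0.24 (exact permutation p = 0.0159), and over genes averaging 3 or more on the log2 CPM scale it was 0.22 (exact permutation p = 0.0238). The test was not passed under the other settings: the difference was 0.15 without the called genes (exact permutation p = 0.135), 0.13 to 0.23 without any one CIA library (exact permutation p from 0.0635 to 0.0952) and 0.12 to 0.16 without healthy 1, 2, 3 or 5 (exact permutation p from 0.127 to 0.175). Gene by gene, the SD of log2 CPM was larger in CIA than in healthy tissue for 82.1% of genes, with medians of 0.38 and 0.18. That share was 74.9% without CIA 4 and 87.4% without healthy 4.

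The size of the arthritic pattern differed between libraries in the same order for rises and falls. Over the genes called higher, the median difference from the healthy mean was 0.98, 1.05, 0.59, 1.21 and 0.54 in CIA 1 to 5. Over those called lower it was -0.59, -0.83, -0.42, -0.93 and -0.37. CIA 4 was the highest arthritic library in 56.5% of genes called higher and the lowest in 50.7% of genes called lower, whereas CIA 3 and CIA 5 were the lowest in 41.2% and 36.2% of the genes called higher. Skeletal muscle markers made up 7.23, 6.89, 11.2, 5.6 and 10.3% of counts in CIA 1 to 5 and 9.47 to 10.8% in the healthy libraries. CIA 4, CIA 2 and CIA 1, with the largest differences, thus had the lowest muscle shares. The covariate of muscle share therefore ran alongside the size of the pattern. The part of muscle share in these differences between libraries was not tested. An arthritis index of each mouse was not used here.

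**Figure D5:**
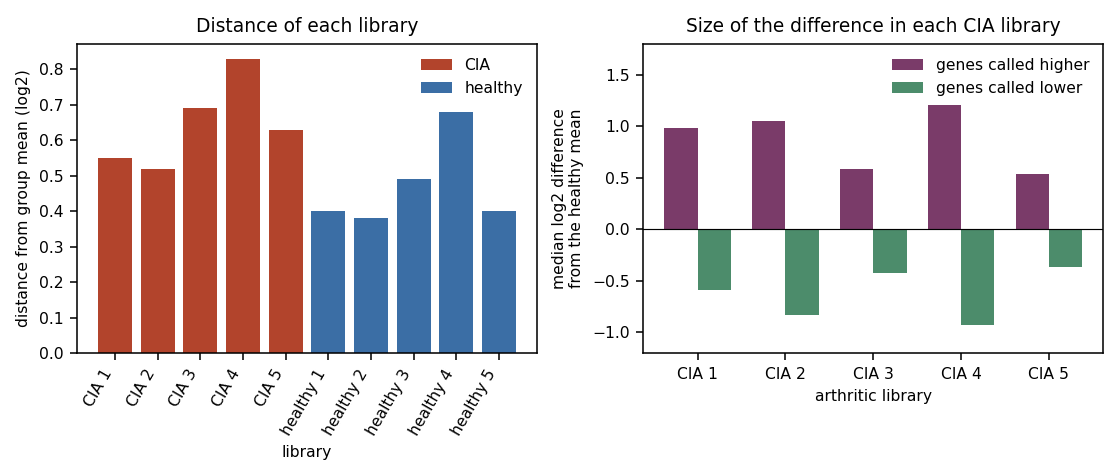
Left, the distance of each library from the mean of the others in its group (root mean square log2 difference), CIA in red and healthy in blue. Right, the median log2 difference from the healthy mean in each CIA library over genes called higher (purple) and lower (green); CIA 4 had 1.21 and -0.93, and CIA 5 had 0.54 and -0.37.

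The libraries also differed in kind. Of 12511 genes averaging 1 or more on the log2 CPM scale, 792 had an SD of at least 1 among the CIA libraries and 418 among the healthy libraries. In 206 of the 792 the 2 highest arthritic libraries were CIA 1 and CIA 4, and 193 of these were called higher in CIA. In 165 they were CIA 2 and CIA 4 (125 called higher), and in 177 they were CIA 1 and CIA 3 (16 called higher and 28 lower). Rrad, Card14, Ankrd1, Col10a1 and Cxcl5 were among the 6 genes of largest SD in the CIA libraries, of genes averaging 3 or more on that scale. Cxcl5 is a neutrophil chemokine with 55.4 and 50.3 CPM in CIA 2 and CIA 4, at most 4.34 CPM in the other arthritic libraries and at most 0.174 CPM in the healthy libraries, and its log2 fold change was 7.98 ± 1.5 over all libraries, 7.32 without CIA 2, 5.86 with limma voom and 5.69 with muscle share as a covariate. Ankrd1, a stretch-induced protein of muscle, had 33.7, 944, 9.56, 2063 and 48.1 CPM in CIA 1 to 5 and 12.6, 22.4, 7.14, 12 and 10.1 CPM in healthy 1 to 5. CIA 2 and CIA 4 stood far above the other arthritic libraries, and CIA 3 lay inside the healthy range (log2 fold change 5.59 ± 1.31 SE, edgeR adjusted p = 0.00361). Without CIA 4 its log2 fold change was 4.33, and the call was lost with limma voom (log2 fold change 2.63, adjusted p = 0.0532) and with muscle share as a covariate (log2 fold change 1.62, edgeR adjusted p = 0.232).

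Rrad, a small GTPase that restrains calcium channels, had 4.79, 593, 4.76, 1129 and 29.5 CPM in CIA 1 to 5 and 10.2, 13.8, 28.9, 7.84 and 19.6 CPM in healthy 1 to 5. CIA 1 and CIA 3 were below every healthy library and CIA 2 and CIA 4 far above (log2 fold change 4.45 ± 1.61 SE, edgeR adjusted p = 0.0355). The call was lost without CIA 2 (edgeR adjusted p = 0.0623), without CIA 4 (edgeR adjusted p = 0.0969, log2 fold change 3.29) and without any one healthy library (edgeR adjusted p from 0.0529 to 0.0742). With muscle share as a covariate the log2 fold change was 0.62 (edgeR adjusted p = 0.832), and with limma voom it was 0.92 (adjusted p = 0.674). Card14, a scaffold of NF-kB signalling in skin, had 142 and 159 CPM in CIA 2 and CIA 4 and at most 2.3 CPM in the other arthritic libraries, against 0.728 to 6.27 CPM in the healthy libraries (log2 fold change 4.76 ± 1.61 SE, edgeR adjusted p = 0.0257). Its call was lost without CIA 2 (edgeR adjusted p = 0.0562) or CIA 4 (edgeR adjusted p = 0.0565) and without healthy 1, 2, 3 or 5 (edgeR adjusted p from 0.0523 to 0.0601), and its log2 fold change was 5.45 without healthy 4. It was also lost with limma voom (log2 fold change 2.33, adjusted p = 0.246) and with muscle share as a covariate (log2 fold change 0.8, edgeR adjusted p = 0.784). Col10a1, the collagen of hypertrophic cartilage, followed another order, with 101, 1.82, 0.346, 2.44 and 14.9 CPM in CIA 1 to 5 and 30.9, 24.3, 33.3, 0 and 11.1 CPM in healthy 1 to 5. Both groups spanned a wide range and the gene was not called (log2 fold change 0.26 ± 1.40 SE, edgeR adjusted p = 0.892), and its log2 fold change was -2.03 without CIA 1 and -0.06 without healthy 4.

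In the 4 lists with the largest medians CIA 4 was the highest arthritic library, and CIA 3 and CIA 5 were the lowest. The median difference of haematopoietic actin regulators was 2.2, 2.09, 1.10, 3.10 and 1.6 in CIA 1 to 5. The median difference of limb, cartilage and fibroblast factors was 0.59, -0.14, 0.21, -0.76 and -0.14, with CIA 1 the highest and CIA 4 the lowest. Fibroblast markers summed to 4527, 3244, 5704, 1118 and 1089 CPM in CIA 1 to 5, so CIA 4 and CIA 5 were low, and to 350 to 2264 CPM in the healthy libraries. Marrow granulocyte precursor markers summed to 1550, 838, 306, 3535 and 834 CPM in CIA 1 to 5. The part that these markers play in the differences between arthritic libraries was not tested.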

How the data were processed

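Messenger RNA was sequenced from mouse forelimb joint tissue. The authors deposited raw read counts per gene for 26688 genes in 15 libraries. Reads were trimmed with fastp 0.23.2, aligned with HISAT2 2.2.1 to GRCm39 and counted with featureCounts 2.0.3, per the submitters' processing notes. The sources used here name neither the annotation release nor the strand setting nor how reads with several alignments were handled, and 38 of the 151 genes named overlap a gene on the opposite strand, so their reads cannot be told apart from their partner's.

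Counts were scaled by TMM and tested with the quasi-likelihood test of edgeR 4.0.16 (R 4.3.3) in one fit of the 3 groups, after filterByExpr with a minimum count of 10, with Benjamini-Hochberg adjustment over all genes tested and a threshold of 0.05. Log2 fold changes are CIA minus healthy, as given by the fit. Log2 CPM values carry a prior count of 2, which does not enter the fold changes. The SE printed with an edgeR log2 fold change is its absolute value divided by the square root of the quasi-likelihood F statistic. It therefore restates the test and is not a separate error of the estimate. CPM are read counts divided by the scaled library size. Libraries held 18627303 to 34247317 counted reads in the 10 libraries compared, and the biological coefficient of variation was 27.8%. No library pair agreed within counting noise (lowest chi-square per degree of freedom 26.1). In simulated data for this comparison, on 15672 genes, with 50 genes changed at each size, the fit recovered 32% of the genes changed 1.5-fold and 68% of those changed 2-fold. At 3-fold it recovered 90% and at 4-fold 94%, with 10 false calls. The simulation gave every group the same spread per gene, whereas the median SD of log2 CPM was 0.38 in CIA and 0.18 in healthy tissue. It also changed few genes, whereas 45.5% of tested genes were called in the data. These figures may therefore not hold for the data.

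Members and the 28 gene lists were chosen with earlier results of these data known. Of 1178 list entries, 24 were not matched in the table and 119 did not pass the filter. The rule for named genes took, per list, up to 3 called genes with the lowest p and 1 of the other direction, the 4 largest rises and falls of gene classes at an average log2 CPM of at least 1 without overlap between groups, and the 6 genes of largest SD among CIA libraries at an average log2 CPM of at least 3. Of the genes named, 56 lie outside it and were chosen after their values were seen. Some genes that the rule names are not reported here. The family and Gene Ontology columns are those of the deposited table. For library distances, an exact permutation test (two-sided) was run over 252 assignments of the distances to the groups (SciPy 1.17.1), and over fewer with a library left out. The distances within a group share libraries and are not independent. The p-values are exact only in that all assignments were counted, and are approximate for the spread of libraries. Alternatives were DESeq2 1.42.0, limma 3.58.1 voom with quality weights, other size factors, mitochondrial transcripts left out, no filter, the 10 libraries alone, muscle share as a covariate, a replicate block and each library left out in turn.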

Additional observations from a re-analysis of the deposited data

Results flagged for a closer look

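Among 302 groups of 5 libraries (151 named genes, CIA and healthy), 15 held a library that stood apart, with a gap to its nearest neighbour of more than 0.71 of the group's range of log2 CPM, and chance gives about 1 in 20 groups. Healthy 3 accounted for 5 and healthy 4 for 4. The causes were not tested.

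In the CIA libraries, Slc38a4 was low in CIA 1 at 24.1 CPM, next 41.9 CPM (gap share 0.799). Ddit3 was low in CIA 2 at 13.4 CPM, next 21.5 CPM (0.717). CIA 5 was high in H19 at 4040 CPM, next 1468 CPM (0.782), and low in Piezo1 at 16.3 CPM, next 23.3 CPM (0.761).

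Healthy 3 was high in Mxd1 at 16.8 CPM, next 8.24 CPM (gap share 0.872), in Cd244a at 0.209 CPM, next 0.0581 CPM (0.784), in Cnr2 at 1.29 CPM, next 0.511 CPM (0.753), and in F630028O10Rik at 8.6 CPM, next 2.42 CPM (0.71). It was low in Nr1d2 at 52.9 CPM, next 62.6 CPM (0.761).

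Healthy 4 was high in Ctla4 at 3.54 CPM, next 0.662 CPM (gap share 0.735), in Nfkb2 at 19.2 CPM, next 15.7 CPM (0.757), and in Mir22hg at 30 CPM, next 20.3 CPM (0.738). It had 0 CPM of Col10a1, next 11.1 CPM (0.821). Jag2 was high in healthy 1 at 59.6 CPM, next 53.3 CPM (0.783), and Stat2 was low in healthy 5 at 9.5 CPM, next 13.5 CPM (0.755).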

How the results depend on the processing

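The counts of 4094 genes higher and 3081 lower stayed within 1.5 times under every alternative except muscle share as a covariate, which gave 2151 and 1901, with 3792 of the 7175 calls shared. DESeq2 called 4207 and 3537, limma voom 3526 and 2962, and the 10 libraries alone 3059 and 2655. With the 10 libraries alone 15262 genes passed the filter. Of the named genes, Cd244a, Nrg1, Stat4 and Tacr1 did not pass it there. With each library left out, 3420 to 4430 were higher and 2560 to 3621 lower. The median log2 fold change of all genes was 0.04 to 0.08 under all alternatives. For long noncoding RNAs, 245 higher and 279 lower, the covariate gave 136 and 140 and the absence of a filter gave 413 higher, and leave-outs gave 211 to 270 and 209 to 330. The difference in library distance, 0.17, was 0.22 over genes at a log2 CPM of at least 3 (exact permutation p = 0.0238) and 0.12 to 0.24 in the leave-outs. The cause was not tested.

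Of 151 named genes, the covariate ended 11 calls, limma voom 7, and each other alternative at most 4. Col10a1, uncalled at 0.26 on the log2 scale, was at -1.49 with limma voom, -1.15 with the covariate, -0.92 with the replicate block, and -2.03 to 0.58 in the leave-outs, with -2.03 without CIA 1 and -0.06 without healthy 4. Malat1, uncalled at 0.12, was at -0.08 with the covariate.

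Replicate numbers did not pair the libraries: deviations of same-numbered CIA and healthy libraries correlated at 0.01, 0.07, -0.39, 0.24 and 0.17, and 2 CIA libraries correlated best with their own number. The replicate block gave 3549 genes higher and 3017 lower, and lost the calls of Rrad (log2 fold change 3.41, edgeR adjusted p = 0.26) and Card14 (log2 fold change 3.69, edgeR adjusted p = 0.106). Genes of few reads, such as Acod1 and Stat4, have fold changes limited by depth. The healthy levels of Acod1, Cd244a, Cxcl5, F7, Hgf, Nrg1, Stat4 and Tacr1, among others, lay under the filter. The same held in most healthy libraries for Havcr2, Kcnj15 and Gpr132. Such genes were tested through libraries outside the healthy group and could hardly be called lower. The counts of genes called higher include them. In most CIA libraries Lrrc52 and Gm45670 lay under the filter. They were tested through libraries outside the CIA group and could hardly be called higher.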

Other observations

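Lymphocyte genes outside the lists described above also differed between libraries. B cell markers, 5 of 5 called higher, summed to 61.6, 25.4, 22.8, 148 and 49.5 CPM in CIA 1 to 5 and 3.36, 7.11, 20.5, 8.48 and 3.94 CPM in healthy 1 to 5. The groups did not overlap, and CIA 4 and healthy 3 were the highest of their groups. Of 6 T cell markers, 3 were tested and 1 was called higher. T cell markers summed to 2 to 6.92 CPM in CIA and, healthy 4 left aside, 0.164 to 1.36 CPM in healthy tissue. Healthy 4, at 47.5 CPM, exceeded every CIA library, so the groups overlapped. Of genes averaging at least 1 on the log2 CPM scale, the 5 that stood at least 2 log2 units higher in healthy 4 than in every other library of the 10 compared were Scart1, Tcf7, Lef1, Lck and Il2ra, which T cells express. Keratinocyte markers summed to 1.41 to 2.73 CPM in CIA and to 47.3 CPM in healthy 3, where Krt10 stood at least 2 log2 units above every other library of the 10.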
